A study of Mus musculus with 12 samples.

Results

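The full range of glucose given to mouse gastruloids was examined here, as the 3 libraries of 3× glucose against the 3 libraries of no glucose (0×). These 6 of the 12 libraries of the series were chosen by their labels, and the 3 libraries of 1× glucose serve as the middle dose. Gastruloids are aggregates of embryonic stem (ES) cells that elongate in culture and form the germ layers of the trunk. All groups were made from 200 cells per gastruloid of the mouse line E14TG2a, kept in 2iLIF (inhibitors of MEK and GSK3 with the cytokine LIF), were given the Wnt agonist CHIR on day 2 and were collected on day 4. From day 3 to day 4 the medium held 0 mM glucose (0×), 21.25 mM (1×) or 63.75 mM (3×). The remaining 3 libraries received 5 mM 2-deoxy-D-glucose (2-DG), a glucose analog that blocks hexokinase, in 1× glucose. Per the study's methods, pyruvate was at the same concentration in the media of different glucose content, so cells in 0× glucose still had a source of carbon for the citric acid cycle. No medium with an inert osmolyte was among the groups, so that glucose and osmolarity cannot be told apart. Each library pooled many gastruloids of 1 ES cell passage (13, 15 or 16), and each group holds 1 library of each passage.

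Glucose enters cells through transporters of the Slc2a family and is trapped by hexokinases as glucose-6-phosphate. Glucose-6-phosphate is sensed by the transcription factors MondoA and ChREBP, which with their partner Mlx bind E-box elements and raise *Txnip* and *Arrdc4*. Both encode alpha arrestins, and TXNIP in turn lowers glucose uptake by removing transporters from the cell surface.

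PolyA RNA was sequenced to totals of 31902471 to 34266196 estimated counts in 0× glucose, 38439471 to 45956080 in 1× and 33336139 to 40744645 in 3×. Levels are given as CPM, counts scaled to a common library size of 1e+06 after TMM scaling, in the order of passages 13, 15 and 16. None of 8 listed markers of tail bud and mesoderm was at 0 in all 9 glucose libraries, and their summed level was 900.3 to 1298 CPM in 0× and 1056 to 1342 CPM in 3× glucose. Libraries of passage 13 stood apart in every group. *T* (Brachyury, the tail bud and mesoderm factor) was at 327, 150 and 164 CPM in 0× and at 330.2, 189 and 217 CPM in 3× glucose. Passage was therefore kept as a block in the test, and results are also given without passage 13. Nothing says that passages were independent derivations, so that the p-values measure the spread between these libraries.

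Of 16966 genes tested with edgeR's quasi-likelihood test with the passage as a block, 136 (0.802%) differed between 3× and 0× glucose at an adjusted p under 0.05, with 97 higher (0.572%) and 39 lower (0.23%) in 3× glucose. At an unadjusted p under 0.05 there were 2742. Changes were small, with a median size of 0.42 on the log2 scale and 8 genes past 1. The 136 genes moved the same way in 3 of 3 passages, against 20.9% (higher) and 20.3% (lower) of all genes tested, and the 0× and 3× libraries did not overlap for 73 of them, against 9.01% of all genes (52 higher against 4.61%, and 21 lower against 4.4%). These counts describe genes already chosen by the test.

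The number of calls depended on single libraries. It was 87, 5 and 12 without the 0× library of passage 13, 15 or 16, and 14, 6 and 7 without the corresponding 3× library. Without a whole passage it was 491 (passage 13, with 96 of the 136 among them), 2 (passage 15) or 4 (passage 16). Without the passage block, only *Klf10* and *Txnip* were called. *Klf10* was the 1 gene called in all 9 of these leave-out fits, *Txnip* and *Arrdc4* were called in 8, and 38 of the 136 in none.

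**Figure D1:**
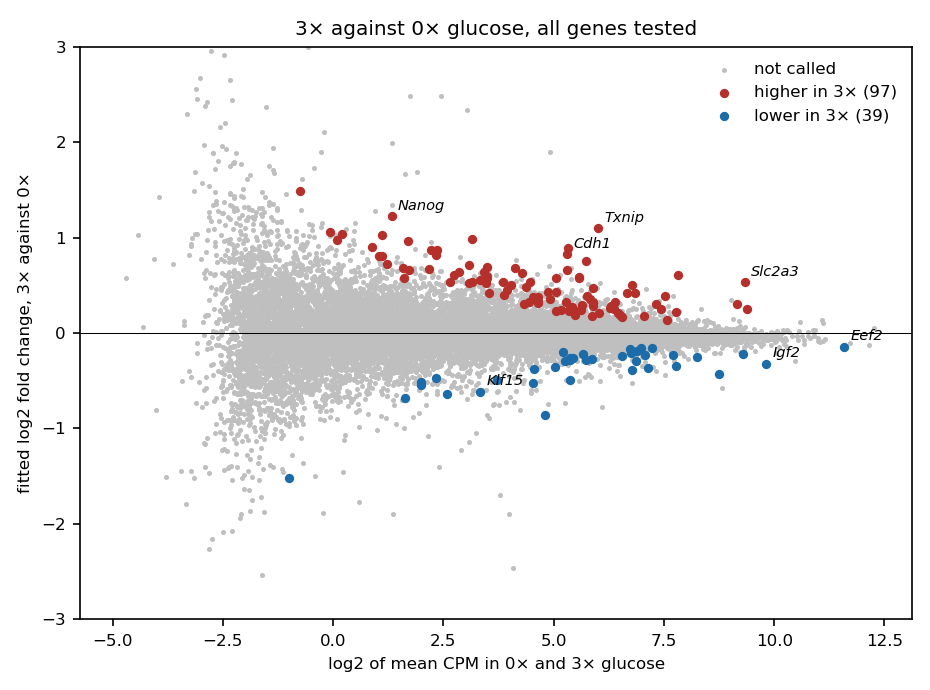
Fitted log2 fold change of 3× against 0× glucose (vertical axis) by mean level (log2 of the mean CPM of the 0× and 3× libraries, horizontal axis), 1 point per gene tested. Red points are the 97 genes called higher and blue points the 39 called lower. Most called genes changed by less than 1 on the log2 scale, and 30 genes beyond 3 in size, among them *Slc15a3*, lie outside the axis.

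The middle dose was set against both ends for the called genes. The mean of 1× glucose lay between the ends for 126 of the 136 genes, and the strict order 0×, 1×, 3× held within each of the 3 passages for 76 of the 97 higher and 24 of the 39 lower genes, against 3.18% and 2.25% of all genes. This order requires that a passage be higher or lower in 3× than in 0×, which the choice of the called genes had already favoured, so that nothing is read from the contrast. The lower step, from 0× to 1×, made up a median of 57.8% of the whole log2 change. The lower step was the larger in 95 of the 136 genes, although the upper step adds more glucose. A test of the 1× libraries against the midpoint of the ends called 3 genes, *Klf10*, *Txnip* and *Arrdc4* (0.0177% of genes), all with 1× above the midpoint. The same 3 were the calls of 1× against 0× glucose (0.0177%). No gene was called between 3× and 1× glucose (0%) by edgeR, with 876 at an unadjusted p under 0.05 and 6 calls by DESeq2. These 3 comparisons share libraries with each other.

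**Figure D2:**
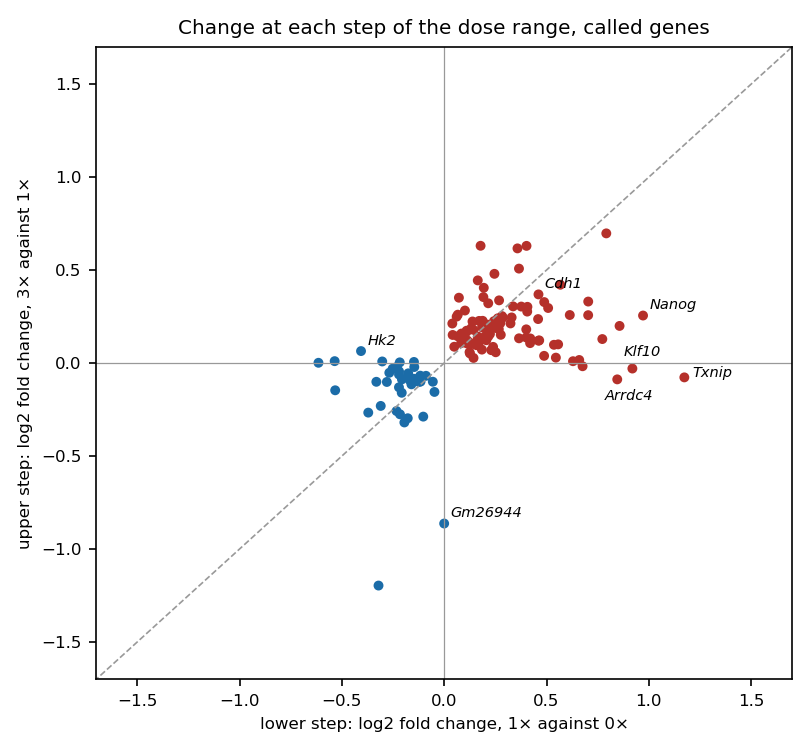
Fitted log2 fold change of the lower step (1× against 0×, horizontal axis) and of the upper step (3× against 1×, vertical axis) for the called genes other than *Slc15a3*, red for higher and blue for lower in 3× glucose, with equal steps on the dashed line. *Txnip*, *Klf10* and *Arrdc4* lie at the right with an upper step near 0, *Cdh1* near the line, and *Gm26944* at the bottom with no lower step.

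*Klf10*, *Txnip* and *Arrdc4*, targets of the glucose sensors, rose with glucose and had reached their level at 1×. The 250 bases before their annotated starts are shown for *Txnip* and *Arrdc4*, since E-box elements are where MondoA and Mlx are known to bind (RefSeq, GRCm38.p6, 5′ to 3′ on the strand of the gene). Capitals mark, in *Txnip* (chr3:96557707-96557956, plus strand), a pair of E-box-like motifs CACGNG spaced by 5 bases and, in *Arrdc4* (chr7:68749239-68749488, minus strand), the E-box CACGTG.
Txnip: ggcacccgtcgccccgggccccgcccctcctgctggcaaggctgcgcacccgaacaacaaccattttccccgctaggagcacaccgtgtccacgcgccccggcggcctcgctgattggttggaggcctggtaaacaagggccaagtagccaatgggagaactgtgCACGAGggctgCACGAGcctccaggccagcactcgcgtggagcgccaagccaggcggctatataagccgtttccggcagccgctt
Arrdc4: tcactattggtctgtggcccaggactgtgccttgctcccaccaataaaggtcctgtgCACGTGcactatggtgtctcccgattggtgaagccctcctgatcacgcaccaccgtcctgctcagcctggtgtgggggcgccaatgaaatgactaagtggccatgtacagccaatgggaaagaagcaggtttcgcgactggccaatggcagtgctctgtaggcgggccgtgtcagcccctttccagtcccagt
The pair lay 85 to 69 bases before the start of *Txnip*, and the E-box 193 to 188 bases before that of *Arrdc4*. Both strands were searched, and a CACGTG is also a CACGNG. Among 27018 genes with such a sequence, 0.0777% held the spaced pair and 6.05% the E-box. Of the 97 genes called higher, 73 had a sequence, and 1 of these held the pair (1.37%) and 2 the E-box (2.74%). Of the 39 genes called lower, 28 had a sequence, and 4 of these held the E-box (14.3%) and 0 the pair. Of 13045 tested genes with a sequence, 8.06% held the E-box and 0.13% the pair. *Klf10* was not searched. A match is a description of the letters in this window and no evidence of binding.

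*Klf10*, a zinc-finger transcription factor, was at 29.3, 29.1 and 26.4 CPM in 0×, at 55.6, 51.1 and 53.5 in 1× and at 56.4, 50.7 and 50.05 in 3× glucose. *Txnip* was at 41.4, 33.8 and 47.9 CPM in 0×, at 97.7, 86.0 and 93.5 in 1× and at 96.2, 77.7 and 89.2 in 3×. *Arrdc4*, the other alpha arrestin of the pair, was at 34.0, 40.5 and 44.1 CPM in 0×, at 60.4, 80.0 and 73.4 in 1× and at 60.7, 71.9 and 68.0 in 3×. For all 3 genes, each library with glucose lay above each library without, and the 1× and 3× libraries overlapped. *Klf10* overlaps *Gm35248* and *Txnip* overlaps *Gm15441*, and shared reads cannot be told apart where counting did not use strand. From 0× to 3× glucose, *Klf10* rose by 0.89 ± 0.04 on the log2 scale (SE, edgeR adjusted p = 1.11e-05, 1.85-fold). *Txnip* rose by 1.10 ± 0.09 (adjusted p = 0.00091, 2.14-fold) and *Arrdc4* by 0.76 ± 0.07 (adjusted p = 0.00106, 1.69-fold). From 1× to 3× the log2 difference was −0.03 for *Klf10* (95% interval −0.12 to 0.06), −0.08 for *Txnip* (−0.26 to 0.11) and −0.09 for *Arrdc4* (−0.23 to 0.05). The highest of these upper bounds, 0.11, is that of *Txnip*.

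**Figure D3:**
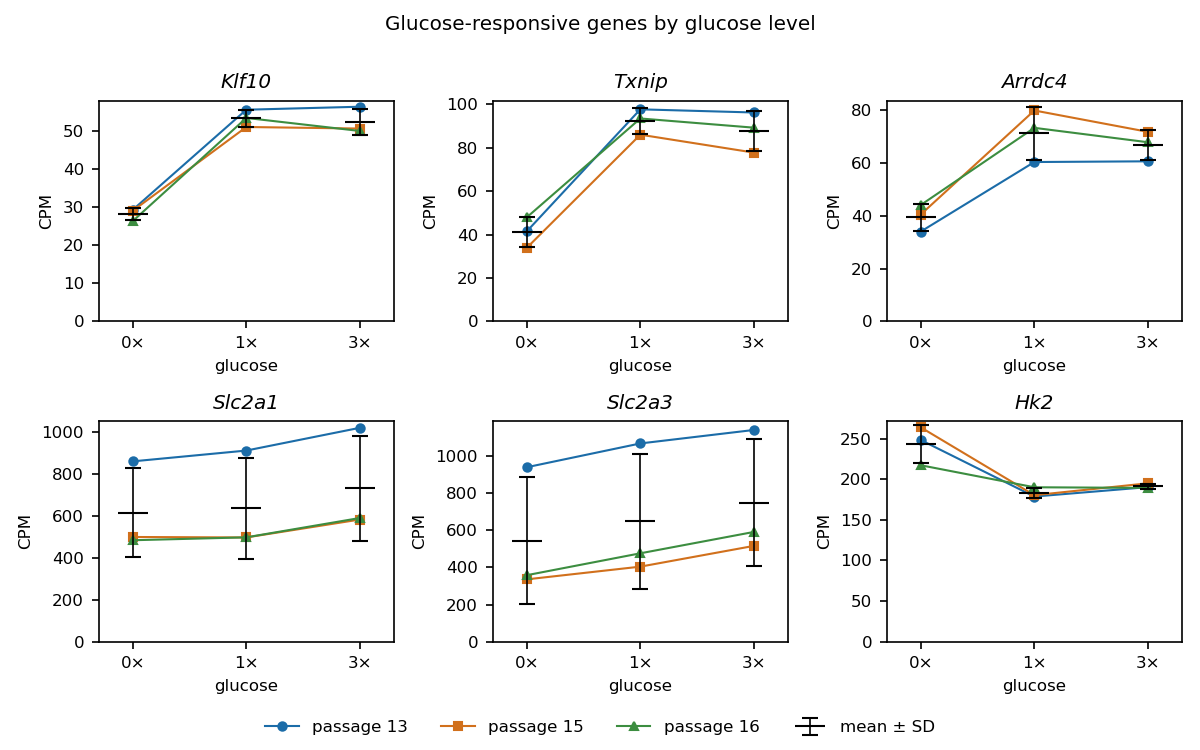
CPM of 6 called genes by glucose level (0×, 1×, 3×), with 1 line per ES cell passage and the mean ± SD of 3 libraries in black. *Klf10*, *Txnip* and *Arrdc4* reached their level at 1×, *Slc2a1* and *Slc2a3* were higher in 3× than in 0× in each passage, and *Hk2* was lower in both media with glucose.

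The level reached in 3× glucose was not the highest in the series. In 2-DG, given in 1× glucose, *Txnip* was at 168 ± 15.6 CPM (SD, n = 3), *Arrdc4* at 136 ± 9.98 and *Klf10* at 100.4 ± 5.0, against 87.7 ± 9.3, 66.9 ± 5.7 and 52.4 ± 3.5 in 3× glucose. Between 2-DG and 3× glucose, 38.8% of genes were called by edgeR. *Txnip* was higher in 2-DG by 0.94 on the log2 scale (adjusted p = 1.91e-05), *Arrdc4* by 1.03 (adjusted p = 2.93e-06) and *Klf10* by 0.94 (adjusted p = 9.10e-07).

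Other members of the sensor pathway were not called by edgeR in the fit of all 12 libraries. Of 9 tested MondoA and ChREBP targets, the same 3 were called and 6 had a positive fold change, with a median of 0.07 against −0.002 over all genes. Over all genes, 8373 of 16966 were fitted higher and 0.572% were called higher. *Rgs16*, another known target, had a log2 fold change of 0.07 (adjusted p = 0.824) and *Hbp1*, a repressor of cell cycle genes, of 0.07 (adjusted p = 0.812). None of the 7 sensor genes was called. *Mlxip*, which encodes MondoA, was at 80.1, 85.9 and 91.8 CPM in 0× and 79.9, 86.5 and 90.1 in 3× glucose, with overlapping groups. Of the 5 tested alpha arrestins, *Arrdc1* was higher by 0.65 ± 0.15 (adjusted p = 0.0821) and *Arrdc3* lower by 0.32 ± 0.09 (adjusted p = 0.11), with neither called. The genes whose log2 CPM followed *Txnip* most closely over the 9 glucose libraries, after the mean of each passage was taken out, were *Arrdc4* (Pearson's r = 0.998), *Cda* (0.995), *Gm14410* (0.993), *Ftsj1* (0.984) and *Prune2* (0.984). This is a description over libraries that share 3 doses and 3 passages, with 1 added to each CPM before the log. Of these, *Arrdc4* and *Prune2* were among the calls, *Prune2* with a rise of 0.68 (adjusted p = 0.0203). *Cda*, *Gm14410* and *Ftsj1* were not called, with log2 fold changes of 0.66, 0.16 and 0.09 (edgeR adjusted p = 0.15, 0.126 and 0.337). *Cda* had a mean of 0.63 CPM in 0× and 0.99 in 3× glucose.

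A pair of glucose transporters rose, while hexokinase 2 fell. *Slc2a1* (GLUT1) was at 858, 498 and 482 CPM in 0×, at 909, 496 and 496 in 1× and at 1018, 581 and 588 in 3× glucose. *Slc2a3* (GLUT3) was at 940.3, 336 and 358 CPM in 0×, at 1069, 404 and 476 in 1× and at 1141, 516 and 591 in 3×. Passage 13 lay far above the other two in every group, so that the groups overlapped although each passage was higher in 3× than in 0×. *Slc2a3* was ordered over the 3 doses in 3 of 3 passages and *Slc2a1* in 2. *Slc2a1* rose by 0.25 ± 0.04 (edgeR adjusted p = 0.032) and *Slc2a3* by 0.54 ± 0.10 (adjusted p = 0.0389). For *Slc2a1* the upper step, 0.21, was larger than the lower, 0.04, and for *Slc2a3* the lower step was 0.28 and the upper 0.25. These were the 2 calls among 11 tested glucose and lactate transporters, against 0.572% of all genes called higher. In the leave-out fits, 1 transporter was called without passage 13 or without its 0× library. The other leave-out fits and the fit without the block called 0. *Slc16a1*, a lactate carrier, was at 192, 183 and 186 CPM in 0× and 191, 185 and 189 in 3×, a difference of 0.01 ± 0.04.

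*Hk2*, the inducible hexokinase of the first step of glycolysis, was at 248, 264 and 217 CPM in 0×, at 179, 180.3 and 190.1 in 1× and at 190.3, 195 and 189 in 3× glucose. Each library without glucose was above each library with it. *Hk2* fell by 0.34 ± 0.06 on the log2 scale in 3× glucose (edgeR adjusted p = 0.0451), and this call was lost in all 9 leave-out fits. It was the single call among 23 tested glycolysis enzymes, 15 of which were fitted lower, with a median of −0.08. Over all genes, 8593 of 16966 were fitted lower and 0.23% were called lower. *Aldoa* (aldolase) was lower by 0.15 (adjusted p = 0.0663). No member was called among 16 genes of glycogen metabolism, 9 of the pentose phosphate pathway, 7 of the polyol and fructose pathway, 10 of the hexosamine pathway or 28 of pyruvate and citric acid cycle metabolism. *Gys1*, the glycogen synthase, was lower by 0.31 ± 0.08 (adjusted p = 0.1) and *Pcx*, pyruvate carboxylase, by 0.31 ± 0.06 (adjusted p = 0.0511).

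Sugar activation and transfer held scattered changes. *Pmm1*, a phosphomannomutase of the path from mannose-6-phosphate to GDP-mannose, was at 63.8, 44.7 and 52.5 CPM in 0× and at 71.3, 57.3 and 66.1 in 3× glucose. Within each passage it was higher in 3×, and it rose by 0.28 ± 0.05 (edgeR adjusted p = 0.0314). It was the single call among 15 tested genes of mannose and fucose metabolism, against 0.572% of all genes called higher. *Mpi*, mannose phosphate isomerase, differed by 0.09 ± 0.04 (adjusted p = 0.318) and *Pmm2* by −0.01 ± 0.05 (adjusted p = 0.955). *Uap1l1*, a relative of the hexosamine enzyme UAP1, was at 54.0, 43.4 and 47.6 CPM in 0×, at 44.8, 36.4 and 43.6 in 1× and at 36.3, 29.7 and 37.1 in 3×. It fell by 0.49 ± 0.06 (adjusted p = 0.00928), in order within each passage and with no overlap of the ends. Named after their values were seen, *Dpy19l3*, a C-mannosyltransferase, fell by 0.29 (adjusted p = 0.0159) and *Pomt2*, an O-mannosyltransferase, rose by 0.23 (adjusted p = 0.0368). They were the calls among 14 tested genes of O-mannose and C-mannose transfer, a list also written after the values were seen. Over all genes, 0.572% were called higher and 0.23% lower. *St6galnac4*, a sialyltransferase, fell by 0.38 (adjusted p = 0.0451).

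Of 16 tested p53 targets, 5 rose from 0× to 3× glucose. All 16 had a positive fold change and 13 were higher in 3 of 3 passages, with a median log2 fold change of 0.26 against −0.002 over all genes. Among all 16966 genes, 8373 were fitted higher, 20.9% were higher in 3 of 3 passages and 0.572% were called higher. The list was chosen with earlier results of these data known. *Cdkn1a*, the cell cycle inhibitor p21, was at 111, 91.0 and 93.4 CPM in 0×, at 119, 107 and 110.3 in 1× and at 133, 129 and 132 in 3× glucose. *Ccng1* (cyclin G1) was at 519.8, 461 and 542 CPM in 0×, at 572, 545 and 587 in 1× and at 624, 627 and 628 in 3×. *Trp53inp1*, a p53-induced autophagy and cell death gene, was at 82.2, 92.2 and 100.1 CPM in 0×, at 103, 107 and 118 in 1× and at 123, 137 and 128 in 3×. In all 3 genes the order 0×, 1×, 3× held in each passage and the ends did not overlap. *Trp53inp1* rose by 0.50 ± 0.05 (edgeR adjusted p = 0.00751), *Cdkn1a* by 0.41 ± 0.06 (adjusted p = 0.0182) and *Ccng1* by 0.31 ± 0.05 (adjusted p = 0.0266). *Eda2r*, a receptor of the TNF family, rose by 0.33 (adjusted p = 0.0182) and *Aen*, a nuclease of apoptosis, by 0.22 (adjusted p = 0.032). The lower and upper steps were 0.26 and 0.24 for *Trp53inp1*, 0.19 and 0.23 for *Cdkn1a* and 0.16 and 0.14 for *Ccng1*. Neither step was called on its own for these genes in the edgeR fit of all 12 libraries.

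Members of the list that were not called included *Phlda3* (log2 fold change 0.34, adjusted p = 0.0621), *Bbc3*, which encodes PUMA (0.26, adjusted p = 0.078), and *Mdm2*, the ligase that degrades p53 (0.07, adjusted p = 0.43). Further genes that p53 is known to induce were among the calls outside the list and were picked out after their values were seen. *Pidd1*, a death domain protein, rose by 0.26 (adjusted p = 0.0159), *Plk2* by 0.36 (adjusted p = 0.0384), *Tnfrsf10b*, a death receptor, by 0.28 (adjusted p = 0.0333) and *Ei24* by 0.14 (adjusted p = 0.0455). The number of p53 targets called was 8 without passage 13, 0 without passage 15 and 1 without passage 16, and 0 without the block. Over all genes, these fits called 289, 2, 4 and 2 higher. The median stayed between 0.23 and 0.30 in the fits without a passage. Of the called members, *Trp53inp1* was called in 6 of the 9 leave-out fits and the others in 2 or 3.

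**Figure D4:**
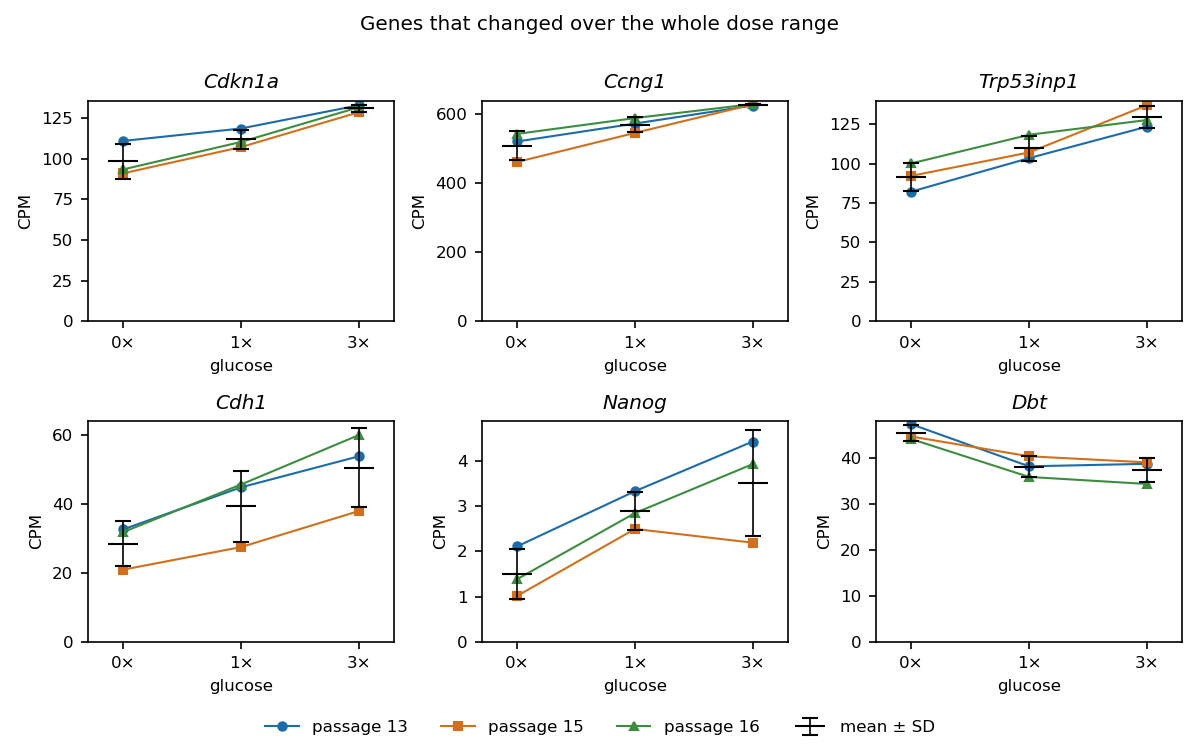
CPM of 6 called genes by glucose level, with 1 line per ES cell passage and the mean ± SD of 3 libraries in black. The p53 targets *Cdkn1a*, *Ccng1* and *Trp53inp1* and the epithelial cadherin *Cdh1* rose at both steps in each passage, *Nanog* was higher in 3× than in 0× in each passage, and *Dbt* fell mainly from 0× to 1×.

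Genes of pluripotent and epithelial cells were among the most raised. *Nanog*, a pluripotency factor, was at 2.11, 1.02 and 1.39 CPM in 0×, at 3.34, 2.50 and 2.85 in 1× and at 4.44, 2.19 and 3.94 in 3× glucose, with no overlap of the ends. It rose by 1.23 ± 0.17 on the log2 scale (edgeR adjusted p = 0.0159, 2.34-fold). *Dppa5a*, an RNA-binding protein of pluripotent cells, rose by 0.64 ± 0.11 (adjusted p = 0.0384) and *Gdf3*, a TGF-beta family ligand, by 0.90 ± 0.15 (adjusted p = 0.032). Of 12 tested markers of ES cells, *Nanog* and *Dppa5a* were called, 9 were fitted higher and 3 lower, with a median of 0.31. In 3 of 3 passages, 6 were higher and 2 lower, against 20.9% and 20.3% of all genes tested. Among all 16966 genes, 8373 were fitted higher and 0.572% were called higher. The calls among the ES cell markers became 3 without passage 13, against 289 called higher of all 17036 genes. They became 0 without passage 15, without passage 16 or without the block. *Nanog* was called in 3 of the 9 leave-out fits and *Dppa5a* in 0. *Zfp42* (Rex1) was higher by 0.86 ± 0.17 (adjusted p = 0.0527) and *Pou5f1* (Oct4) by 0.32 ± 0.08 (adjusted p = 0.0918), neither called. The summed level of the 13 listed markers was 112, 63.3 and 90.3 CPM in 0×, 135, 79.6 and 108 in 1× and 135, 84.0 and 122 in 3× glucose, higher in each passage with glucose. In these bulk libraries, more cells of a type and more RNA per cell cannot be told apart.

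*Cdh1*, which encodes E-cadherin, was at 32.7, 20.9 and 31.9 CPM in 0×, at 44.9, 27.5 and 45.7 in 1× and at 53.9, 38.0 and 60.1 in 3× glucose. *Esrp1*, a splicing regulator of epithelial cells, was at 6.25, 3.94 and 7.61 CPM in 0×, at 9.44, 6.18 and 10.6 in 1× and at 10.6, 9.17 and 15.3 in 3×. Both rose at each step in each passage, with no overlap of the ends. The fitted rise was 0.83 ± 0.10 for *Cdh1* (edgeR adjusted p = 0.0141) and 0.99 ± 0.12 for *Esrp1* (adjusted p = 0.0119). The claudins *Cldn4* and *Cldn6* rose by 0.73 and 0.60 (edgeR adjusted p = 0.0431 and 0.0159), *Krt8* (keratin 8) by 0.58 (adjusted p = 0.0385) and *Erbb3*, a receptor of neuregulins, by 1.03 (adjusted p = 0.0431). A list of 20 epithelial genes was written after these values were seen. Of its 19 tested members, 19 were fitted higher and 17 were higher in 3 of 3 passages, with 6 called and a median of 0.58. For comparison, 8373 of all 16966 genes were fitted higher, 20.9% were higher in 3 of 3 passages and 0.572% were called higher. Members of this list were chosen with the values known, so that nothing is read from the contrast. The 6 calls became 9 without passage 13, against 289 called higher of all 17036 genes. They became 0 without passage 15, without passage 16 or without the block. In each of these refits 19 of 19 were fitted higher. The refits share libraries and chosen members with the main fit, so that their common direction is no separate evidence. Epithelial genes are also expressed in endoderm. The summed level of 8 listed endoderm markers, of which *Krt8* was called, was 34.2, 215 and 101 CPM in 0× and 32.7, 141 and 94.8 in 3× glucose, lower in each passage, and none was at 0 in all 9 libraries. Its part in the result was not tested. *Epcam*, an epithelial adhesion protein, was higher by 0.41 ± 0.12 and was not called (adjusted p = 0.142).

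*Pdgfra*, a receptor of mesoderm, was at 75.5, 166 and 141 CPM in 0×, at 59.9, 148 and 129 in 1× and at 58.9, 136 and 119 in 3× glucose. It was ordered within each passage although the groups overlapped, and fell by 0.29 ± 0.04 (edgeR adjusted p = 0.0182). *Pcdh19*, a protocadherin of paraxial mesoderm, fell by 0.43 ± 0.08 (adjusted p = 0.0469). Named after their values were seen, *Igf2*, a fetal growth factor, fell by 0.32 ± 0.05 (adjusted p = 0.0203) and *Gpc3*, a glypican that restrains growth, by 0.23 ± 0.03 (adjusted p = 0.0159). *Igf2* overlaps *Igf2os*, which was also called lower, and reads of the pair cannot be told apart where counting did not use strand. Of 15 tested genes of epithelial to mesenchymal transition, in a list also written after the values were seen, *Pdgfra* was called and 11 were fitted lower. Among all 16966 genes, 8593 were fitted lower and 0.23% were called lower. Members of this list were also chosen with the values known, so that nothing is read from the contrast. *Cdh2* (N-cadherin) was at 335, 346 and 323 CPM in 0× and 304, 319 and 308 in 3×, a difference of −0.11 ± 0.04 (adjusted p = 0.2). Of the 8 markers of tail bud and mesoderm, 6 were fitted higher and 0 were called, with a median of 0.17. Of all 16966 genes, 8373 were fitted higher.

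Of 19 tested presomitic and paraxial mesoderm genes, 0 were called by edgeR with all libraries, 14 were fitted lower and 11 were lower in 3 of 3 passages, with a median of −0.19. Among all 16966 genes, 8593 were fitted lower and 20.3% were lower in 3 of 3 passages. Without passage 13, 7 of the 19 were called lower and none higher, against 202 lower and 289 higher of all 17036 genes in that fit. The other leave-out fits and the fit without the block called 0 of the 19. DESeq2 called 0 of the 19. An edgeR fit of the 9 glucose libraries alone called 6, all lower, against 264 lower of all 16630 genes. *Meox2*, a factor of somites, had a log2 fold change of −0.83 ± 0.19 (adjusted p = 0.0834), while *Tbx6*, which specifies paraxial mesoderm, had 0.04 ± 0.13 (adjusted p = 0.908). Among 18 tested Wnt targets, *Wnt8a*, a ligand of the primitive streak, was called higher, against 0.572% of all genes. It was at 45.6, 17.9 and 28.3 CPM in 0×, at 74.1, 27.1 and 36.5 in 1× and at 73.7, 30.6 and 40.7 in 3× glucose, and rose by 0.66 ± 0.09 (adjusted p = 0.0159). *Cdx2*, a caudal factor, and *Nkx1-2*, a factor of the tail bud, were higher in each passage by 0.39 ± 0.15 and 0.46 ± 0.15 and were not called (adjusted p = 0.234 and 0.171). No primitive streak gene of 16, no neural progenitor gene of 14 and no Hox gene of 29 was called by edgeR in the fit of all 12 libraries. Without passage 13, edgeR called 5 primitive streak genes higher and 3 lower, 2 neural progenitor genes higher and 5 Wnt targets higher. In Hox groups 5 to 8 it then called 2 higher and 1 lower, and in groups 1 to 4 it called 1 lower. In the primitive streak, neural progenitor, Wnt and Hox lists, edgeR called 0 genes without either other passage or without the block. The summed level of 6 neural markers was 281, 160.2 and 130 CPM in 0× and 312, 190.1 and 176 in 3× glucose, higher in each passage, with none called.

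**Figure D5:**
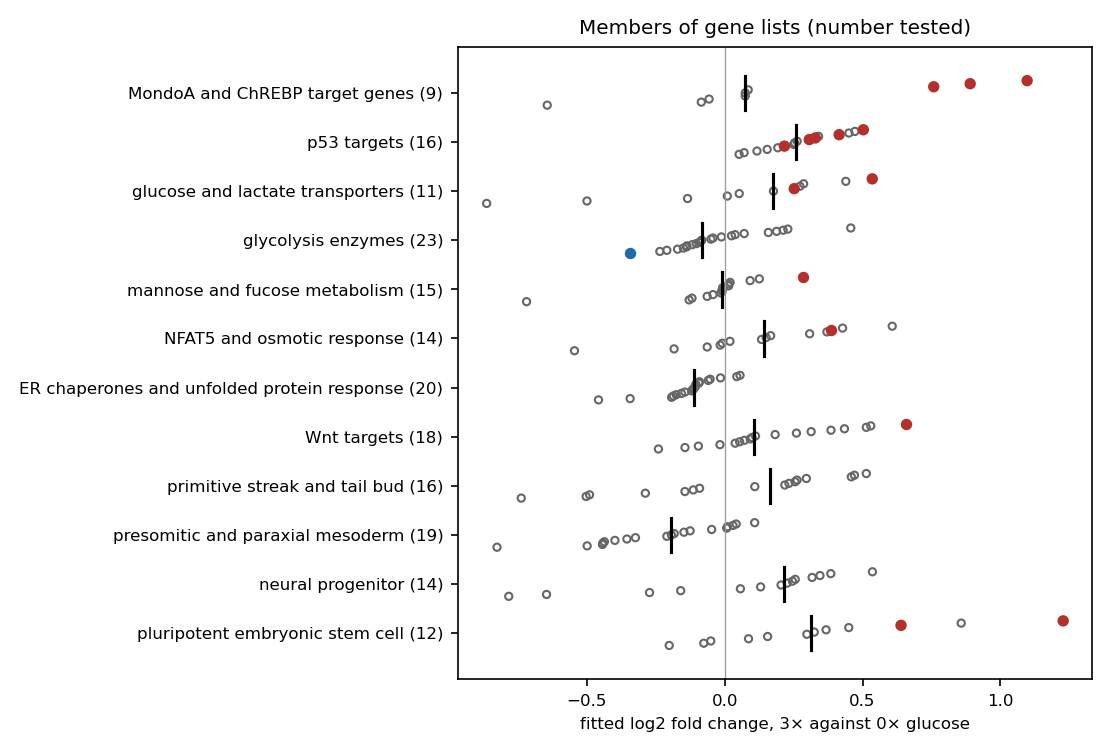
Fitted log2 fold change of 3× against 0× glucose (horizontal axis) for the tested members of 12 gene lists, 1 point per gene, filled where called by edgeR (red higher, blue lower), with the list median as a black line. The 16 p53 targets lie to the right of 0, and 18 of 20 ER chaperone genes and 14 of 19 presomitic and paraxial mesoderm genes lie to the left with none called.

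*Klf15*, *Bckdhb* and *Dbt* fell with glucose. *Klf15*, a transcription factor known to raise amino acid breakdown in fasting, was at 11.2, 11.5 and 13.8 CPM in 0×, at 8.08, 6.76 and 8.99 in 1× and at 8.06, 7.07 and 8.68 in 3× glucose. *Bckdhb*, a subunit of the branched-chain ketoacid dehydrogenase, was at 61.1, 55.0 and 58.2 CPM in 0×, at 53.4, 48.1 and 48.0 in 1× and at 48.8, 45.7 and 48.7 in 3×. *Dbt*, its core subunit, was at 47.5, 44.8 and 44.2 CPM in 0×, at 38.3, 40.5 and 36.0 in 1× and at 38.8, 39.1 and 34.4 in 3×. In all 3 genes each library without glucose lay above each of the 3× libraries. *Klf15* fell by 0.61 ± 0.09 (edgeR adjusted p = 0.0203), with an upper step of 0.00. *Bckdhb* fell by 0.28 ± 0.04 (adjusted p = 0.0199) and *Dbt* by 0.28 ± 0.05 (adjusted p = 0.0469). *Abat*, which breaks down GABA, fell by 0.53 (adjusted p = 0.0255), *Gcat*, of threonine breakdown, by 0.21 (adjusted p = 0.0465) and *Aldh7a1*, of lysine breakdown, by 0.16 (adjusted p = 0.0473). Apart from *Klf15* and *Abat*, these were named after their values were seen.

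In a list of 20 genes of branched-chain amino acid breakdown, also written after the values were seen, 2 were called lower, 14 were fitted lower and 13 were lower in 3 of 3 passages, with none higher in 3 of 3 and a median of −0.11. Among all 16966 genes, 8593 were fitted lower, 20.3% were lower in 3 of 3 passages and 0.23% were called lower. Since members of the list were chosen with the values known, nothing is read from the contrast. The calls in the list became 3 without passage 13, against 202 called lower of all 17036 genes. They became 0 without passage 15, without passage 16 or without the block. *Bckdha*, the partner of *Bckdhb* in the first enzyme of the complex, was at 46.2, 44.3 and 45.1 CPM in 0× and at 43.6, 44.6 and 47.4 in 3× glucose, with a difference of 0.00 ± 0.06. Carriers were called in both directions, and those named here were picked after their values were seen. *Slc15a3*, a lysosomal peptide transporter, was lower. *Slc15a2*, a peptide transporter, rose by 0.49 ± 0.06 (adjusted p = 0.00928) and *Slc38a4*, an amino acid transporter, by 0.42 ± 0.06 (adjusted p = 0.0161), with steps of 0.07 and 0.35. *Slc46a1*, a folate transporter, and *Slc19a2*, a thiamine transporter, rose by 0.53 and 0.32 (adjusted p = 0.0337 and 0.0412). No ATF4 target or amino acid synthesis gene of 28 was called.

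*Ak1*, *Cpt1c* and *Eef2* were picked from the calls after their values were seen. *Ak1*, an adenylate kinase, was at 42.9, 49.8 and 57.4 CPM in 0×, at 51.5, 56.9 and 69.4 in 1× and at 58.0, 69.0 and 81.1 in 3× glucose, ordered in each passage. It rose by 0.47 ± 0.04 (edgeR adjusted p = 0.00106) in even steps of 0.24 and 0.23, and was called in 7 of the 9 leave-out fits. *Cpt1c*, a brain-type carnitine palmitoyltransferase relative, rose by 0.32 ± 0.04 (adjusted p = 0.00987). Among 18 tested genes of the FoxO and starvation response, *Trp53inp1* and *Gabarapl1*, an autophagy gene, were called higher (*Gabarapl1* by 0.30, adjusted p = 0.0412) and *Klf15* lower. Over all genes, 0.572% were called higher and 0.23% lower. *Trp53inp1* is also one of the p53 targets. *Kdm3a*, a histone demethylase induced by hypoxia, fell by 0.23 (adjusted p = 0.0412). It was the single call among 17 tested hypoxia genes, against 0.23% of all genes called lower. *Eef2*, the elongation factor of translation, was at 3231, 3262 and 3210 CPM in 0× and 2937, 2954 and 2903 in 3×, and fell by 0.14 ± 0.03 (adjusted p = 0.0431).

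Of 14 tested genes of the osmotic response, *Slc6a6*, the taurine transporter, was called. It was at 145, 157 and 172 CPM in 0×, at 137, 171 and 208 in 1× and at 171, 216 and 236 in 3× glucose, with most of the change in the upper step (0.28 of 0.38, edgeR adjusted p = 0.0255). No other member was called in that fit, which called 0.572% of all genes higher and 0.23% lower. Of the 14, 9 were fitted higher, against 8373 of all 16966 genes. In 3 of 3 passages 7 were higher and 1 lower, against 20.9% and 20.3% of all genes. The list median was 0.14, with −0.005 for the lower step and 0.06 for the upper. DESeq2 called 3 of the list higher, against 241 of all genes. Among the leave-out fits, edgeR called 1 without passage 13 or without its 0× library. The other leave-out fits and the fit without the block called 0. *Slc5a3*, the myo-inositol transporter, was higher by 0.17 ± 0.06 (adjusted p = 0.227), and *Akr1b3*, aldose reductase, differed by 0.02 ± 0.04 (adjusted p = 0.849). The part of osmolarity in these values was not tested.

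Of 20 tested ER chaperone and unfolded protein response genes, 18 were fitted lower in 3× glucose and 14 were lower in 3 of 3 passages, with a median of −0.11. Of all 16966 genes, 8593 were fitted lower and 20.3% were lower in 3 of 3 passages. None of the 20 was higher in 3 of 3 passages. The edgeR fit of all 12 libraries called 0 of them. *Hsp90b1* (GRP94) was at 809, 836 and 785 CPM in 0×, at 710.1, 759 and 715 in 1× and at 685, 748 and 693 in 3×, with each 3× library below each 0× library and a difference of −0.19 ± 0.06 (adjusted p = 0.145). *Sdf2l1*, an ER quality control protein, differed by −0.46 ± 0.13 (adjusted p = 0.126) and *Hspa5* (BiP) by −0.12 ± 0.07 (adjusted p = 0.43). The edgeR fit of the 9 glucose libraries called 5 of the 20 lower, against 264 lower of all 16630 genes. DESeq2 called 3 lower, against 174 of all genes. None of the 20 was called in the 9 leave-out fits or in the fit without the block. No S phase gene of 17 and no mitosis gene of 17 was called.

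Other genes among the most raised and most lowered calls belonged to none of the groups above. *H2-Q2*, an MHC class I gene of a family with near-identical members, rose by 1.49 ± 0.27 (edgeR adjusted p = 0.0389) from 0.347, 0.239 and 0.339 CPM to 1.10, 0.762 and 0.758 CPM. *Scn4b*, a sodium channel subunit, rose by 1.06 and *Rnf207*, which overlaps *Icmt*, by 1.03, and *Slc4a5*, a bicarbonate transporter, by 0.87. *Btn2a2*, *Mapk13* and *Ckmt1* (mitochondrial creatine kinase) rose by 0.97, 0.82 and 0.87. *H1f4*, a linker histone, fell by 1.52 ± 0.29 (adjusted p = 0.0451) from 1.14, 0.657 and 0.431 CPM to 0.377, 0.213 and 0.171 CPM. *Slc15a3*, which overlaps *Tmem132a*, was listed at 0 in the 3 libraries of 3× glucose, against 9, 11 and 12 counts in 0× and 13, 8 and 11 in 1×. It was at least 11.7-fold lower, against a floor of 3 counts over the group. *Gm26944*, a noncoding gene that overlaps *Pcf11*, was at 33.3, 38.1 and 37.0 CPM in 0×, at 35.04, 40.5 and 33.2 in 1× and at 20.5, 19.9 and 19.1 in 3×. It fell by 0.86 ± 0.11 (adjusted p = 0.0141), all of it in the upper step, but its most abundant transcript alone had a fold change of 0.62 in the other direction. The remaining genes with large falls were *Gm40783*, *9430024E24Rik*, *Gm46965*, *A230054N11Rik*, *Islr*, *Cnih2* and *Raph1*, by 0.39 to 0.68. Of the 136 called genes, 59 overlap another listed gene.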

How the data were processed

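PolyA RNA of 12 gastruloid libraries, 3 per group, was analysed from the estimated counts of RefSeq transcripts that the authors deposited, 1 file per library. The authors made these expected counts on Galaxy with Trim Galore, HISAT2, Picard (removal of PCR duplicates) and StringTie, on mm10 per the processing notes. Versions, annotation and the use of strand in counting are not given in the sources used here. Removal of duplicates lowers the counts of abundant transcripts most. All values were whole, so that none was rounded. The authors' 3 tables of DESeq2 comparisons were not used.

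Transcripts were summed per gene with the RefSeq table of GRCm38.p6, which named all 120312. Genes kept by filterByExpr (16966) were fitted over all 12 libraries in R 4.3.3 with edgeR 4.0.16 (TMM, glmQLFit, glmQLFTest, passage as a block), two-sided, with Benjamini-Hochberg adjustment and a threshold of 0.05. SEs come from the F statistic. No pair of libraries shared more than 9.67% of its values among transcripts of at least 10 counts. The labels give the pairing. The deviations of libraries from group means correlated at 0.15 to 0.58 in the 9 same-passage pairs of glucose libraries. DESeq2 1.42.0, other filters and scalings, subsets of libraries and leave-out fits were tried. Genes named were the 15 most raised and 15 most lowered calls moving the same way in 3 passages, and called or leading members of gene lists. A gene that met this rule is not reported here. Members and lists were chosen with earlier results of these data known. Intervals cover the spread between libraries.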

Additional observations from a re-analysis of the deposited data

How the results depend on the processing

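The number of genes called between 3× and 0× glucose (136) was 135 with median-of-ratios factors, 198 with a mean of at least 100 counts, 50 without a filter, 415 by DESeq2, 2 with the most abundant transcript alone, 687 in a fit of the 9 glucose libraries and 493 in a fit of the 6 libraries compared. Without the passage as a replicate block it was 2, and 71.3% of calls were higher with the block against 58.1% by DESeq2, 64.6% with a mean of at least 100 counts, 61.6% with 9 libraries and 55.0% with 6. Leaving out a library or passage gave 2 to 491. For the departure from the midpoint (3), the count was 0 without the replicate block, 6 by DESeq2 and 1 to 4 in the leave-out fits. For 1× against 0× glucose (3), it was 5 with a mean of at least 100 counts, 61 by DESeq2, 6 with the most abundant transcript, 14 with 9 libraries and 3 to 5 in the leave-out fits. For 3× against 1× glucose (0), it was 6 by DESeq2, 1 with 9 libraries and 0 to 1 in the leave-out fits. The cause of these differences was not tested. Of 1732 refitted fold changes of 104 named genes, 1190 stayed on their side of the threshold, 446 lost and 85 gained the call, and 11 changed sign. With the most abundant transcript alone these were *Akr1b10* (−0.14), *Gm26944* (0.62), *Islr* (1.86), *Mpi* (−0.079), *Tfap2c* (−1.60), *Txnrd3* (0.28) and *Wnt5a* (0.15). In the leave-out fits *Fbp1* ranged from −0.00022 (without passage 16) to 0.68, and *Hand2* from −0.63 to 0.14 (without passage 13), with 0.0044 and 0.028 without the 0× or the 3× library of passage 13. Depth limits genes near 1 CPM, such as *Nanog*, *H2-Q2* and *H1f4*.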
